A study of Mus musculus with 4 samples.

Results

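The 8 genes described here are the T-box factors *Tbx2*, *Tbx3*, *Tbx5*, *Tbx18* and *Tbx20* and the Iroquois factors *Irx3*, *Irx4* and *Irx5*. They were chosen by their symbols, with no measured value in the rule, from the 32285 genes counted in each library. Droplet single-cell RNA-seq was performed on E14.5 ventricles of C57BL/6 mice, in 2 control libraries (*Tie2*Cre;*Ets1* fl/+) and 2 *Ets1* eKO libraries (*Tie2*Cre;*Ets1* fl/fl). Each library pooled 3 ventricles of embryos whose sex was not determined. Both groups carried *Tie2*Cre and at least 1 floxed *Ets1* allele, so that the controls kept 1 intact allele. *Tie2*Cre recombines in endothelial cells, in their descendants such as cushion mesenchyme, and in blood cells, and not in cardiomyocytes. The replicates are separate pools of embryos, and p-values of *Ets1* eKO against control measure the spread between 2 libraries per group. For comparisons between cell classes they measure the spread, over the 4 libraries, of the difference between classes within a library.

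T-box and Iroquois proteins bind DNA and divide the developing heart into regions of working and conducting muscle. *Tbx5* and *Tbx20* activate genes of chamber muscle, whereas *Tbx2* and *Tbx3* repress that programme in the atrioventricular canal and the conduction system. *Tbx18* is known from the epicardium and the sinus venosus. *Irx3* is known for its role in the fast conduction system of the ventricle, *Irx4* as a factor of ventricular muscle, and *Irx5* for the gradient of repolarisation across the ventricular wall. The T-box family is also known from the endocardial cushions, where endocardial cells turn into the mesenchyme of the valves.

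Levels are given in CPM, the unique molecular identifiers (UMIs) of a gene divided by all UMIs of the cells of a class in a library and multiplied by 1000000. They can be compared between classes for a gene and not between genes, and lists of 4 values follow the order control replicates 1 and 2, then *Ets1* eKO replicates 1 and 2. A fall in the CPM of a class cannot tell fewer expressing cells from less RNA per cell. The classes were gated by lists of marker genes that hold none of the 8 genes, on cells with at least 3000 UMIs: 9482, 6288, 7607 and 11057 cells. Their median depth was 10887, 10014, 10483 and 7023 UMIs, lowest in *Ets1* eKO replicate 2. The classes held 2310 compact-like, 1876 trabecular-like, 4399 cycling-like, 713 atrioventricular canal (AVC)-like and 297 atrial-like cardiomyocytes (these in tissue labelled as ventricles), 2016 mural endocardial-like, 614 valve endocardial-like and 1463 coronary endothelial-like cells, 1817 cushion mesenchyme-like, 1277 fibroblast-like, 684 epicardial-like and 628 immune-like cells. *Ets1* was lower in *Ets1* eKO in endothelial and mesenchymal classes: 272, 252, 115 and 85.2 CPM in mural endocardial-like, 292, 285, 113 and 99.8 CPM in valve endocardial-like and 83.1, 67.8, 43.0 and 42.6 CPM in cushion mesenchyme-like cells. It was lower too in fibroblast-like cells (112, 94.6, 77.4 and 67.3 CPM) and nearly level in immune-like cells (12.7, 12.7, 12.3 and 10.7 CPM). In epicardial-like cells *Ets1* was higher in *Ets1* eKO, between low levels (9.81, 10.0, 16.4 and 19.3 CPM). The 8 cardiomyocyte markers had a median sum of 119 to 136 of 3000 UMIs in the muscle classes and of at most 6 elsewhere. Between 19 and 47 cell barcodes were shared by pairs of libraries, at most 0.44% of the smaller library. Immune-like cells served as a measure of free RNA for the 8 genes: they held 74 UMIs of *Tbx20* among 3991032 UMIs, 7 of *Irx3* and at most 4 of each other member.

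The genes sit alone or in clusters (GENCODE vM21, GRCm38). *Tbx3* (chr5:119670669-119684724, + strand) and *Tbx5* (chr5:119832668-119885219, + strand) are neighbours with 147944 bases and no other coding gene between them, and *Tbx3* overlaps *Tbx3os1* on the other strand. *Irx3* (chr8:91798525-91802067, - strand), which overlaps *Irx3os* on the other strand, and *Irx5* (chr8:92357625-92376286, + strand) are neighbours too, 555558 bases apart, with *Irx6* 298002 bases beyond *Irx5*. The others are *Tbx2* (chr11:85832551-85841948, + strand), *Tbx18* (chr9:87702800-87731260, - strand, overlapping *D030062O11Rik* on the other strand), *Tbx20* (chr9:24718138-24774303, - strand) and *Irx4* (chr13:73260479-73269608, + strand). Whether the counting used strand is not given in the sources used here, so reads of *Tbx3*, *Tbx18* and *Irx3* may include those of the overlapping gene.

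Of the 8 members, 4 matched an entry of the promoter table used here (*Tbx18*, *Tbx20*, *Irx3* and *Irx4*). Promoters are shown for *Irx3*, *Irx4* and *Tbx20*, the 3 of these whose RNA separated trabecular-like from compact-like cardiomyocytes. Each stretch has 300 bases, from 250 before to 50 after the RefSeq start of the gene, and comes from RefSeq on GRCm38.p6: chr8:91801605-91801904 (- strand) for *Irx3*, chr13:73260247-73260546 (+ strand) for *Irx4* and chr9:24774254-24774553 (- strand) for *Tbx20*. The RefSeq start of *Irx3* lies within the GENCODE gene, so that its whole window is inside the gene as GENCODE gives it. Capitals mark GGTGT on either strand (read as ACACC on the other), the core of the T-box site.
*Irx3*: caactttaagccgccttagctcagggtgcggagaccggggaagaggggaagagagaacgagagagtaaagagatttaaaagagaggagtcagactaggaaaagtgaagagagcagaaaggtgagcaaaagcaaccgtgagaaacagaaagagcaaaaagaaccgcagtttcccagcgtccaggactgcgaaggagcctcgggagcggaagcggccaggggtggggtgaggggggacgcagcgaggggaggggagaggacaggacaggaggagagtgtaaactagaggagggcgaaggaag
*Irx4*: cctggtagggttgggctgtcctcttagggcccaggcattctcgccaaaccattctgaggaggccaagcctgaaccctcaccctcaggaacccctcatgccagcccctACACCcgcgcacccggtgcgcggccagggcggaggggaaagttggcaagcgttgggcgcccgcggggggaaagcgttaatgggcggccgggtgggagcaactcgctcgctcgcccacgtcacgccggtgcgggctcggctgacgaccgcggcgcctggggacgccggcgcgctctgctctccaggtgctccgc
*Tbx20*: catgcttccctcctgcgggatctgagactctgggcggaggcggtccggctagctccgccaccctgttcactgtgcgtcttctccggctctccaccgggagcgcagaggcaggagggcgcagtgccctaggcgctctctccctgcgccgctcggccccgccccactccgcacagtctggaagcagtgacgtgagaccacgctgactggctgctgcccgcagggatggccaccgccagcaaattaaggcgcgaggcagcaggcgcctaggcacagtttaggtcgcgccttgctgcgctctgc
*Irx4* held 1 match, on the opposite strand, and *Irx3* and *Tbx20* held none. Of 32851 promoters of this length, 41.6% held GGTGT on either strand. The longer T-box letters GGTGTGA and AGGTGTGA were found in 3.98% and 1.28% of promoters, and the ETS letters CCGGAAGT and CAGGAAGT in 3.89% and 3.33%, and none of these was in the 3 windows. These counts describe letters in 300 bases only.

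Among the repressors, *Tbx2* was highest in atrial-like and AVC-like cardiomyocytes. It stood at 62.2, 44.0, 40.0 and 24.3 CPM in atrial-like and at 36.5, 47.4, 37.1 and 33.9 CPM in AVC-like cells, and these 2 classes overlapped. The next classes were cushion mesenchyme-like (9.18 to 17.8 CPM), fibroblast-like (10.9 to 14.1 CPM) and epicardial-like cells (6.78 to 17.8 CPM), which overlapped one another and lay below AVC-like cells in every library. Compact-like, trabecular-like and cycling-like cardiomyocytes held at most 2.07 CPM, and immune-like cells held no UMI of *Tbx2*, which allows up to 0.752 CPM.

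*Tbx3*, the other repressor of the canal and the conduction system, had its highest level in AVC-like cells, at 91.0, 115.7, 116.9 and 94.1 CPM. This range did not overlap that of atrial-like cells, which followed with 55.6, 62.9, 70.3 and 45.8 CPM. Cushion mesenchyme-like cells held 27.7, 29.5, 46.5 and 60.3 CPM and overlapped atrial-like cells. All other classes lay lower, from 10.6 CPM in coronary endothelial-like cells of *Ets1* eKO replicate 1 down to 0, and trabecular-like cells were at 2.60, 1.23, 0 and 1.65 CPM.

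*Tbx5*, the activator of atrial and chamber muscle, fell into a clearer order. Atrial-like cells held 249, 220, 201 and 203 CPM and AVC-like cells 139, 112, 139.5 and 142 CPM, with no overlap between them or with the next class. Trabecular-like cells held 62.6, 75.2, 60.2 and 46.5 CPM and overlapped cushion mesenchyme-like cells, at 39.7, 26.1, 70.1 and 89.4 CPM. Next came cycling-like cardiomyocytes (26.0 to 34.95 CPM), which overlapped the cushion cells, then epicardial-like (16.7 to 24.97 CPM), valve endocardial-like (3.05 to 32.7 CPM) and compact-like cells (16.6 to 20.2 CPM). Of the 5 cardiomyocyte classes the compact-like cells, the outer wall, were thus the lowest. Fibroblast-like cells held 3.78 to 7.07 CPM and mural endocardial-like cells 2.06 to 2.43 CPM, each apart from its neighbours in this order.

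*Tbx18* marked the epicardial layer, with 265, 248, 216 and 192 CPM in epicardial-like cells. Fibroblast-like cells, a lineage that arises in large part from the epicardium, followed at 80.1, 103, 70.1 and 72.3 CPM, and both classes stood apart from every class below. Cushion mesenchyme-like cells held 37.9, 34.3, 19.4 and 17.7 CPM, and cycling-like, compact-like and trabecular-like cardiomyocytes ranged together from 8.84 to 28.8 CPM. AVC-like cells held 1.89 to 8.99 CPM and the endothelial classes at most 3.36 CPM.

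*Tbx20*, a factor of chamber muscle and of endocardial cushions, was highest in the mesenchyme. Cushion mesenchyme-like cells held 1792, 1716, 1919 and 1447 CPM and fibroblast-like cells 1133, 1172, 973 and 873 CPM, with no overlap between these 2 classes or with the muscle below. The 5 cardiomyocyte classes followed with overlapping neighbours, from atrial-like (453 to 667 CPM) and AVC-like (455 to 542 CPM) through compact-like (353 to 531 CPM) and cycling-like (273 to 423 CPM) to trabecular-like cells (162 to 274 CPM). Valve endocardial-like cells held 147 to 211 CPM, overlapping the trabecular-like cells, epicardial-like cells 70.1 to 135 CPM, mural endocardial-like cells 24.3 to 32.7 CPM and coronary endothelial-like cells 12.9 to 28.9 CPM. The coronary values and 3 of the 4 mural endocardial values lay within the range of immune-like cells (3.17 to 31.6 CPM). With 2000 UMIs per cell, 2.28% to 3.12% of coronary endothelial-like cells held a UMI of *Tbx20*. This overlapped the immune-like cells (1.16% to 2.82%), and the coronary class is not read as expressing the gene. Of mural endocardial-like cells 3.29% to 5.23% held one, above the immune-like range, and a low level there is not excluded. After thinning each cell to 2000 UMIs, 87.2% to 92.7% of cushion mesenchyme-like cells held a UMI of *Tbx20*, against 1.16% to 2.82% of immune-like cells. With all UMIs these shares were 94.9% to 99.0% and 2.33% to 8.33%, at median depths of 4025 to 6220.5 and 4427 to 7032.5 UMIs per cell. All cells of both classes were deep enough to be thinned.

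Of the Iroquois factors, *Irx3* was highest in trabecular-like cardiomyocytes, at 61.7, 54.3, 79.4 and 62.7 CPM, apart from every other class. Mural endocardial-like cells held 37.8, 38.5, 30.0 and 29.3 CPM and AVC-like cells 28.3, 25.4, 39.6 and 33.9 CPM, which overlapped. Cycling-like cardiomyocytes held 18.0 to 20.3 CPM, valve endocardial-like cells 4.63 to 12.2 CPM and compact-like cells 3.66 to 8.69 CPM. Cushion mesenchyme-like, fibroblast-like and epicardial-like cells held at most 1.75 CPM.

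*Irx4* was a gene of muscle in these classes, and low in the atrial-like cells. Trabecular-like cells stood highest, at 53.3, 57.7, 62.7 and 56.7 CPM, and overlapped no other class. Cycling-like (41.4 to 49.3 CPM), AVC-like (34.6 to 48.8 CPM) and compact-like cells (30.8 to 38.4 CPM) followed with overlapping neighbours. Atrial-like cells held 1.26 to 10.0 CPM, and no class other than muscle exceeded 1.94 CPM, a value also reached in immune-like cells.

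*Irx5* differed from both by its level in the endocardium. Mural endocardial-like cells held 165, 164, 165 and 149 CPM, more than any other class in every library. Valve endocardial-like cells followed at 59.9, 55.6, 35.3 and 58.4 CPM and overlapped trabecular-like cardiomyocytes at 42.1, 35.4, 39.7 and 34.5 CPM. AVC-like cells held 13.9 to 30.0 CPM, coronary endothelial-like cells 3.38 to 9.39 CPM and compact-like cells 1.68 to 4.22 CPM. With 2000 UMIs per cell, 25.2% to 27.8% of mural endocardial-like cells held a UMI of *Irx5*, against 0 of 628 immune-like cells, which allows a share of up to 0.478%. With all UMIs the mural share was 49.1% to 62.5%, against 0% to 1.16% of immune-like cells.

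**Figure D1:**
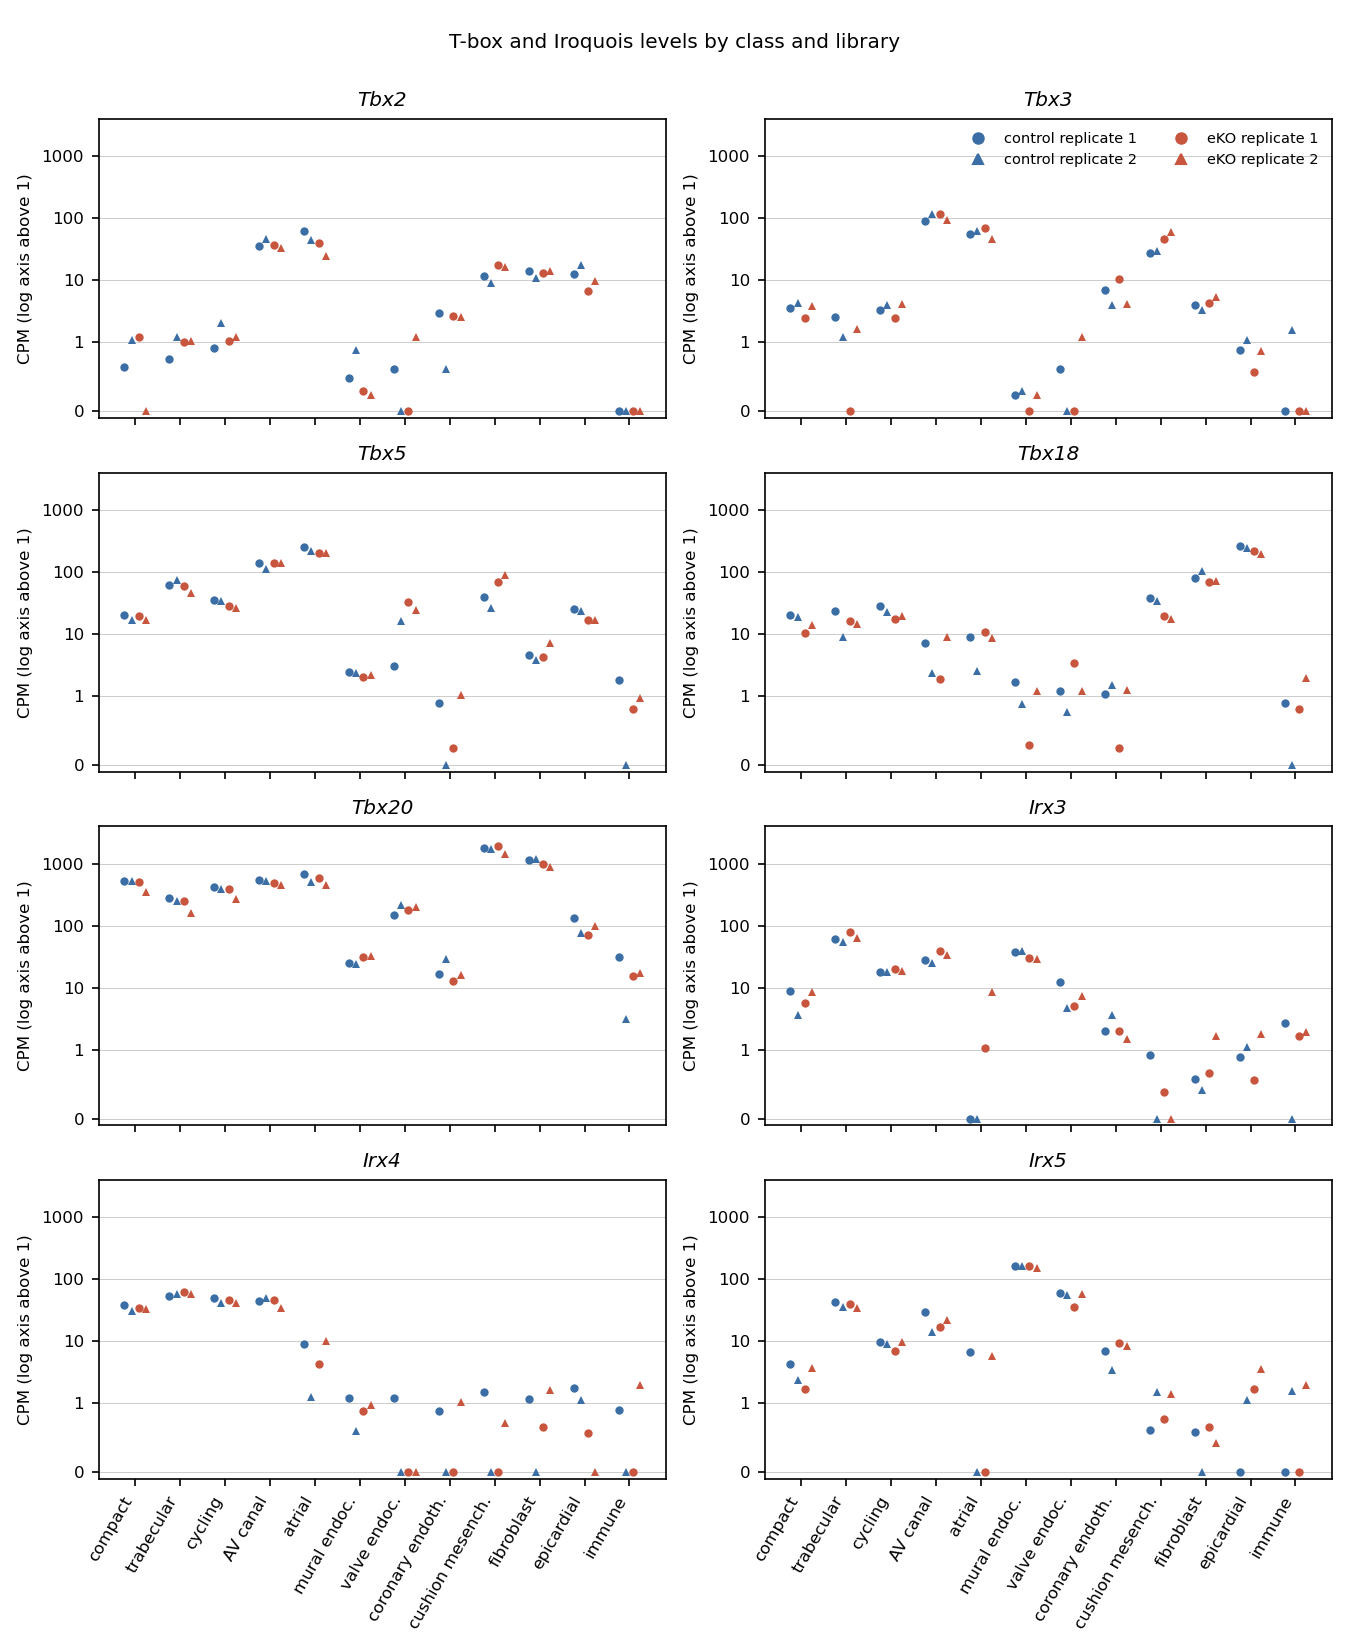
Level of each of the 8 genes in CPM (y axis, linear up to 1 and logarithmic above) in 12 classes (x axis), with 1 point per library, circles for replicate 1, triangles for replicate 2, blue for control and red for *Ets1* eKO. *Tbx3* peaks in AVC-like cells, *Tbx18* in epicardial-like cells, *Tbx20* in cushion mesenchyme-like cells, *Irx4* in ventricular muscle and *Irx5* in mural endocardial-like cells.

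The inner and the outer layer of the ventricular wall were then compared, with each library giving both classes. Trabecular-like cardiomyocytes, which line the lumen, had higher *Irx3*, *Irx4*, *Irx5* and *Tbx5* than compact-like cardiomyocytes, and lower *Tbx20* and *Tbx3*. The tool was edgeR's quasi-likelihood test with library as a block, and 6 of the 7 members tested passed an adjusted p of 0.05, 4 higher and 2 lower, where 45.8% of all 12193 genes tested did, 23.5% higher and 22.3% lower. *Irx5* showed the largest difference in log2 fold change, +3.72 (SE 0.15, adjusted p = 5.0e-18), and *Irx3* followed with +3.32 (SE 0.13, adjusted p = 1.3e-18). *Tbx5* differed by +1.80 (SE 0.09) and *Irx4* by +0.84 (SE 0.08). For each of these 4 genes every trabecular-like value lay above every compact-like value. *Tbx20* was lower (-0.94, SE 0.06), and its values overlapped nowhere. *Tbx3* was lower too (-1.16, SE 0.35, adjusted p = 0.00725), between low levels that overlapped, 2.44 to 4.31 CPM in compact-like and 0 to 2.60 CPM in trabecular-like cells, and its call was lost without control replicate 2 (adjusted p = 0.0512). *Tbx18* differed by +0.11 (SE 0.15, adjusted p = 0.568) with overlapping values, and it passed without control replicate 2 (+0.35, adjusted p = 0.0366). With no block for library, 5 of the 7 members passed.

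AVC-like cardiomyocytes, the slowly conducting muscle between the chambers, were compared with compact-like cells in the same way. Here 6 of 8 members passed, 5 higher and 1 lower in the canal, where 45.9% of 11579 genes did, 23.2% higher and 22.7% lower. Both repressors led, *Tbx2* with a log2 fold change of +5.47 (SE 0.28, adjusted p = 3.2e-11) and *Tbx3* with +4.67 (SE 0.14, adjusted p = 1.5e-14). *Tbx2* had 85, 99, 59 and 49 UMIs in AVC-like cells and 5, 5, 8 and 0 in compact-like cells. It entered the test through the AVC-like counts alone, and the size of its fold change is uncertain. *Tbx5* differed by +2.66 (SE 0.09), *Irx5* by +2.60 (SE 0.21) and *Irx3* by +2.04 (SE 0.19), each without overlap. *Tbx18* ran the other way (-1.87, SE 0.27). *Tbx20* differed by -0.10 (SE 0.07, adjusted p = 0.234), a sign that turned with total count scaling, and *Irx4* by +0.17 (SE 0.11, adjusted p = 0.240). Total count scaling moved the median of all genes by 0.196 in this comparison, so that these differences near 0 depend on the scale. With a stricter gate, which raised the thresholds on the marker sums, both passed, *Tbx20* at -0.23 (adjusted p = 0.0216) and *Irx4* at +0.37 (adjusted p = 0.0378). *Tbx20* also passed with no filter on low counts (-0.15, adjusted p = 0.0455) and without *Ets1* eKO replicate 2 (-0.19, adjusted p = 0.0184), and *Irx4* with total count scaling (+0.36, adjusted p = 0.0110).

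In the endocardium, valve and mural cells were set apart by *Tbx20* and the Iroquois pair. *Tbx20* was higher in valve endocardial-like cells, with a log2 fold change of +2.65 (SE 0.10, adjusted p = 2.3e-13). Since the mural values lay mostly within the range of immune-like cells, the size of this difference is uncertain. *Irx3* (-2.22, SE 0.22) and *Irx5* (-1.67, SE 0.11) were lower there, with no overlap between the 2 classes for either. These 3 were all the members with enough counts for the test, and 23.8% of 11068 genes passed, 12.2% higher and 11.6% lower. *Tbx5* had too few counts for this test with all 4 libraries, and stood at 3.05, 16.2, 32.7 and 24.3 CPM in valve and 2.06 to 2.43 CPM in mural endocardial-like cells. Without control replicate 1 it entered the test through its valve counts alone (+3.36), and with no filter on low counts it differed by +2.81. Mural endocardial-like cells held 7 to 10 UMIs of *Tbx5* per library. That it passed in both fits is therefore not read as a result.

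Cushion mesenchyme, which arises from endocardium, was compared with fibroblast-like cells, which arise in large part from epicardium. Cushion mesenchyme-like cells had higher *Tbx5* (log2 fold change +3.34, SE 0.18), *Tbx3* (+3.08, SE 0.18) and *Tbx20* (+0.60, SE 0.07) and lower *Tbx18* (-1.67, SE 0.13). These 4 of 5 tested members passed, where 51.1% of 11613 genes did, 24.7% higher and 26.4% lower, and their ranges did not overlap. *Tbx2* differed by -0.09 (SE 0.19, adjusted p = 0.713), and its sign turned with total count scaling, which moved the median of all genes by 0.134, and without control replicate 1. *Irx3*, *Irx4* and *Irx5* were too low in both classes to be tested.

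**Figure D2:**
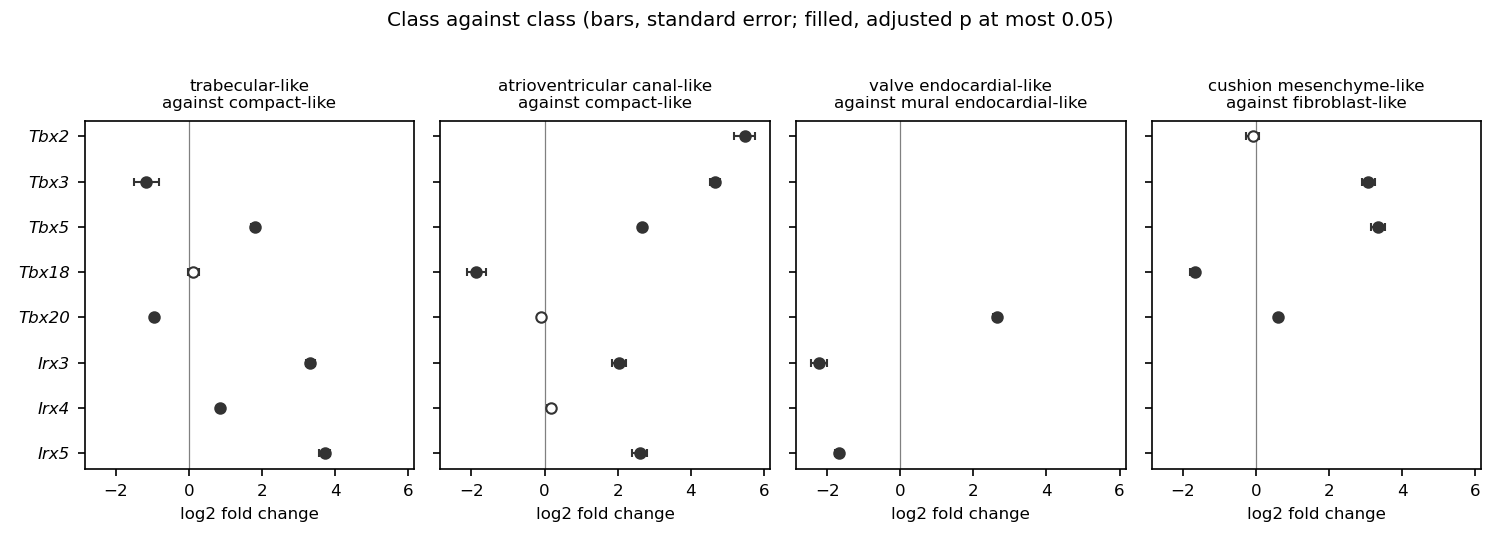
Log2 fold change (x axis) of each member (y axis) between 4 pairs of classes, from sums over 4 libraries, with bars of 1 standard error and filled points at an adjusted p of at most 0.05. *Irx3* and *Irx5* lie to the right for trabecular-like against compact-like cells (+3.32 and +3.72) and to the left for valve against mural endocardial-like cells (-2.22 and -1.67), and *Tbx3* and *Tbx5* lie to the right for AVC-like and for cushion mesenchyme-like cells.

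Deletion of *Ets1* in the endothelial lineage was then tested in 10 classes, with 2 control against 2 *Ets1* eKO libraries each. The members passed a filter on low counts in 53 of these tests. Both calls at an adjusted p of 0.05 fell in cushion mesenchyme-like cells, where *Tbx5* and *Tbx3* rose. In cushion mesenchyme-like cells 2 of 5 members were called, both higher, where 0.694% of all 11957 genes were called and 0.293% were called higher. Over the 10 classes, unadjusted p was under 0.05 in 10 of the 53 tests of members and in 10.2% of the tests of all genes. *Ets1* eKO lay above control in every library in 11 of the 53 tests and below in 15, against 13.9% and 29.6% of the tests of all genes.

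*Tbx5* held 39.7 and 26.1 CPM in control and 70.1 and 89.4 CPM in *Ets1* eKO cushion mesenchyme-like cells, from 129, 105, 181 and 126 UMIs. No control value reached an *Ets1* eKO value. The log2 fold change was +1.35 (SE 0.21, adjusted p = 0.0195 with edgeR), and leaving out each library in turn gave +1.05 to +1.69 with the call kept each time.

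*Tbx3*, the neighbour of *Tbx5* on the chromosome, held 27.7 and 29.5 CPM in control and 46.5 and 60.3 CPM in *Ets1* eKO, from 90, 119, 120 and 85 UMIs. The groups did not overlap. Its log2 fold change was +0.95 (SE 0.18, adjusted p = 0.0450 with edgeR), close to the threshold, and DESeq2 (adjusted p = 0.144), total count scaling (0.0593), a stricter gate (0.0600) and a stricter cell filter (0.0589) each ended the call.

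The other T-box genes of the cushion did not pass. *Tbx18* was at 37.9 and 34.3 CPM in control and 19.4 and 17.7 CPM in *Ets1* eKO, with no overlap, a log2 fold change of -0.86 (SE 0.21) and an adjusted p of 0.0867, and it passed with no filter on low counts (adjusted p = 0.00902). *Tbx2* was at 11.7 and 9.18 against 17.8 and 16.3 CPM, with no overlap, +0.81 (SE 0.28) and an adjusted p of 0.257, and its sign turned in the cells without smooth muscle UMIs described next (-0.17). *Tbx20*, at its highest in this class, overlapped between groups (log2 fold change +0.02, adjusted p = 0.983), a difference whose sign turned with total count scaling. For 3 of the 5 members *Ets1* eKO lay above control in every library and for 1 below, where 14.2% and 29.8% of all genes did.

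The makeup of this class differed between libraries too, and the share of cells in it overlapped between the groups. Cushion mesenchyme-like cells were 491, 602, 412 and 312 in number, or 5.18%, 9.57%, 5.42% and 2.82% of each library, and smooth muscle-like cells, which line the great arteries, were 107, 257, 8 and 6. Within the cushion class the 8 smooth muscle and pericyte markers summed to 796 and 834 CPM in control and 520 and 413 CPM in *Ets1* eKO, 4 of the 8 lower and 1 higher in both *Ets1* eKO libraries, with 1 marker at 0 in control replicate 2 and in *Ets1* eKO replicate 1. The 8 cycling markers summed to 614, 624, 746 and 906 CPM, 6 of them higher in both *Ets1* eKO libraries, and the 7 cushion markers to 2612, 2737, 2552 and 2583 CPM. The 6 fibroblast markers, of the class richer in *Tbx18*, summed to 407, 269, 226 and 111 CPM, 2 of them lower and 1 higher in both *Ets1* eKO libraries, with none, 1, 1 and 2 of them at 0. The 8 cardiomyocyte markers summed to 1426, 855, 1250 and 1628 CPM, and 1 of them was higher in both *Ets1* eKO libraries. In cushion mesenchyme-like cells with no UMI of the smooth muscle list among 3000, which left 69, 96, 95 and 108 cells, *Tbx5* differed by +0.95 (adjusted p = 0.570) and *Tbx3* by +0.75 (adjusted p = 0.828), and edgeR called 0 of 7999 genes (466 at an unadjusted p under 0.05). The part of these shifts in the values of *Tbx5*, *Tbx3* and *Tbx18* was not tested.

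**Figure D3:**
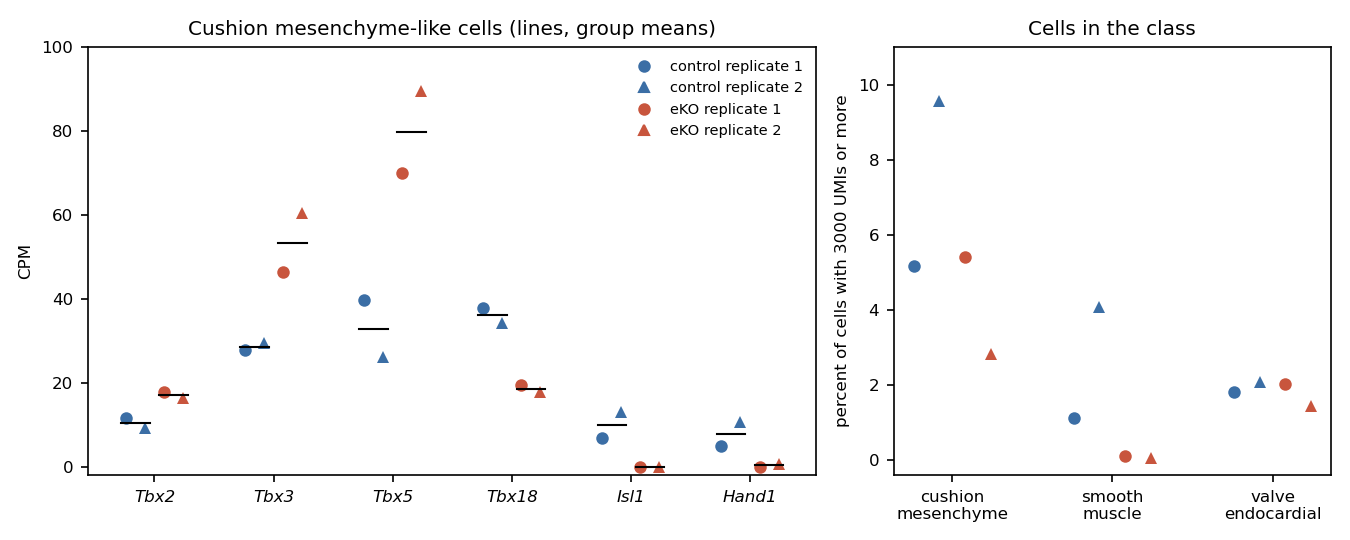
Left, CPM (y axis) of 4 T-box genes and of *Isl1* and *Hand1* (x axis) in cushion mesenchyme-like cells, 1 point per library (blue, control; red, *Ets1* eKO; circle, replicate 1; triangle, replicate 2) with lines at group means; right, cells of 3 classes as a percentage (y axis) of the cells with at least 3000 UMIs in each library. *Tbx5* and *Tbx3* are higher and *Tbx18* lower in both *Ets1* eKO libraries, and smooth muscle-like cells fall from 1.13% and 4.09% to 0.105% and 0.0543%.

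Outside the cushion, no member passed in any class. In endocardium and coronary endothelium, where the driver acts directly, the closest was *Tbx5* in valve endocardial-like cells: 3.05 and 16.2 CPM in control and 32.7 and 24.3 CPM in *Ets1* eKO, from 5, 21, 39 and 20 UMIs. The groups were apart, with a log2 fold change of +1.72 (SE 0.46, adjusted p = 0.140), where 0.486% of 9871 genes passed. This value rested on single libraries: without control replicate 2 it was +3.24 (adjusted p = 7.1e-06), without *Ets1* eKO replicate 2 +1.88 (adjusted p = 0.000723), and without control replicate 1 +0.86 (adjusted p = 0.674). With no filter on low counts (adjusted p = 0.000386) or the replicate number as a block (adjusted p = 0.00319) it passed. In these cells the 8 cardiomyocyte markers summed to 891, 540, 938 and 1234 CPM, 3 of them higher in both *Ets1* eKO libraries, the 6 atrial markers to 331, 297, 343 and 360 CPM (2 higher and 1 lower) and the 8 mesenchymal markers to 877, 827, 927 and 924 CPM (3 higher and 1 lower), and no gene of these lists was at 0 in any library. The part of these lists in the result was not tested.

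*Tbx20* in mural endocardial-like cells stood at 24.99 and 24.3 against 30.9 and 32.7 CPM, without overlap, with a log2 fold change of +0.43 (SE 0.18, adjusted p = 0.264), where 1.65% of 11682 genes passed. The 8 mesenchymal markers, of cell types rich in *Tbx20*, summed there to 623, 567, 1059 and 963 CPM, 6 of them higher in both *Ets1* eKO libraries, and their part was not tested. The control values and 1 *Ets1* eKO value lay within the range of immune-like cells, which held 31.6, 3.17, 15.5 and 17.5 CPM. Library by library, the mural value was below the immune-like value in control replicate 1 and above it in the others. *Irx5*, the factor with its peak in this class, had nearly level values (165, 164, 165 and 149 CPM, adjusted p = 0.977), and *Irx3* stood at 37.8 and 38.5 against 30.0 and 29.3 CPM (adjusted p = 0.383), without overlap. In coronary endothelial-like cells *Irx5* was at 6.97 and 3.38 against 9.39 and 8.44 CPM, with a log2 fold change of +0.77 (SE 0.33, adjusted p = 0.358), and *Tbx20* at 16.6 and 28.9 against 12.9 and 15.8 CPM (adjusted p = 0.414), where 1.09% of 11486 genes passed. The 4 mural endocardial markers, of the class richest in *Irx5*, summed there to 28.3 and 16.6 against 49.7 and 43.1 CPM, 2 of them higher and 0 lower in both *Ets1* eKO libraries and none at 0, and their part was not tested.

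In the muscle, where the driver is not active, 0 of 7 tested members passed in compact-like, 0 of 6 in trabecular-like, 0 of 8 in cycling-like and 0 of 8 in AVC-like cardiomyocytes. The background was also low there: 0.00814%, 0.0336%, 0.00716% and 0% of all genes passed in edgeR, which is 1, 4, 1 and 0 genes, against 4, 13, 4 and 4 with DESeq2 and 918, 1520, 1325 and 854 at an unadjusted p under 0.05. *Tbx18* in compact-like cells stood at 20.1 and 18.7 CPM in control and 10.5 and 14.0 CPM in *Ets1* eKO, without overlap, with a log2 fold change of -0.59 (SE 0.19, adjusted p = 0.633), and it passed only without *Ets1* eKO replicate 2 (-0.81, adjusted p = 0.0207). *Irx3*, the trabecular factor, had 61.7 and 54.3 against 79.4 and 62.7 CPM in trabecular-like cells (log2 fold change +0.38, SE 0.17, adjusted p = 0.379) and 28.3 and 25.4 against 39.6 and 33.9 CPM in AVC-like cells (+0.51, SE 0.21, adjusted p = 0.616). In both classes *Ets1* eKO lay above control in each library.

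*Tbx20* in compact-like cells was at 525 and 531 CPM in control and 500.3 and 353 CPM in *Ets1* eKO, and the lowest value belonged to *Ets1* eKO replicate 2, the shallowest library. The same library was lowest in trabecular-like (274, 248, 253 and 162 CPM) and cycling-like cells (423, 394, 387 and 273 CPM). Both *Ets1* eKO libraries lay below both controls in compact-like, cycling-like and AVC-like cells (542, 531, 489 and 455 CPM, adjusted p = 0.829), while the groups overlapped in trabecular-like cells. Without *Ets1* eKO replicate 1, which leaves that library to stand for its group with the spread of the controls, *Tbx20* passed in compact-like (log2 fold change -0.50), trabecular-like (-0.53) and cycling-like cells (-0.45) and not in AVC-like cells. With all 4 libraries its adjusted p in the first 3 of these classes was 0.702, 0.602 and 0.641.

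In fibroblast-like cells 0 of 5 and in epicardial-like cells 0 of 4 tested members passed, where 0% and 0.0306% of all genes did. These are 0 and 3 genes in edgeR, 2 and 0 with DESeq2 and 664 and 559 at an unadjusted p under 0.05. *Tbx18*, the epicardial factor, stood at 265 and 248 against 216 and 192 CPM in epicardial-like cells (adjusted p = 0.895) and at 80.1 and 103 against 70.1 and 72.3 CPM in fibroblast-like cells (adjusted p = 0.852), with *Ets1* eKO below control in every library of both. *Tbx20* was at 1133 and 1172 against 973 and 873 CPM in fibroblast-like cells (adjusted p = 0.852), also without overlap. *Tbx5* was at 24.97 and 23.4 against 17.0 and 16.7 CPM in epicardial-like cells, opposite in direction to the cushion.

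**Figure D4:**
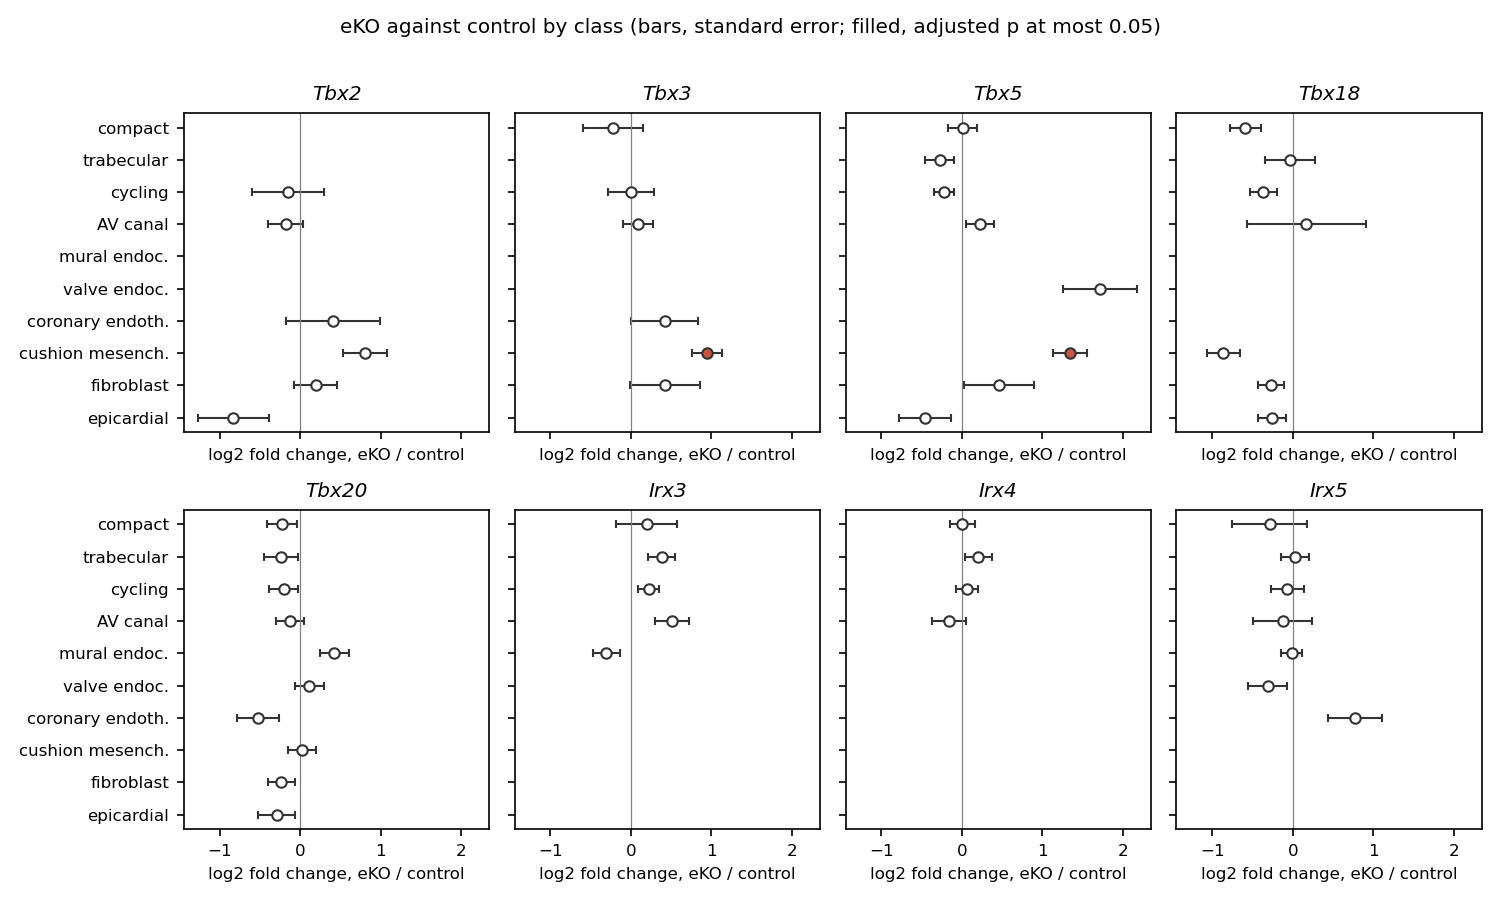
Log2 fold change of *Ets1* eKO against control (x axis) for each member in 10 classes (y axis), with bars of 1 standard error and filled points at an adjusted p of at most 0.05; classes where a gene was too low to be tested have no point. Filled points are *Tbx3* (+0.95) and *Tbx5* (+1.35) in cushion mesenchyme-like cells.

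Whether the effect of *Ets1* deletion differed between classes was tested with a class by condition term. For *Tbx5* the effect in cushion mesenchyme-like cells exceeded that in epicardial-like cells by 1.77 (SE 0.35, adjusted p = 0.0184) on the log2 scale, where 0.328% of 11585 genes passed, but it was lost without *Ets1* eKO replicate 2 (+1.61, adjusted p = 0.235). This pair of classes was chosen after their values were seen. Against fibroblast-like cells, the other mesenchymal class, neither *Tbx5* (+0.85, adjusted p = 0.588) nor *Tbx3* (+0.54, adjusted p = 0.823) passed, where 0.446% of 12329 genes did. No member passed for trabecular-like minus compact-like, AVC-like minus compact-like or valve minus mural endocardial-like cells, where 0.14%, 0.0243% and 0.537% of genes passed. The same held for valve endocardial-like minus epicardial-like, mural minus coronary and AVC-like minus mural endocardial-like cells, where 0.322%, 1.3% and 0.0558% passed.

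The other genes of both families were mostly too low to be tested. Of 14 listed, 13 are in the table, and at most 4 were tested in any comparison. *Irx2*, a neighbour of *Irx4*, was higher in trabecular-like (23.1 to 30.9 CPM) than in compact-like cells (3.05 to 7.93 CPM), with a log2 fold change of +2.16 (SE 0.14), and *Irx1* by +1.83 (SE 0.15). These were 2 of 3 tested, both in the direction of *Irx3*, *Irx4* and *Irx5*, where 23.5% of all genes were called higher. In valve against mural endocardial-like cells 1 of 2 passed, *Irx6* (-1.91, SE 0.28), lower in valve cells like its neighbours *Irx3* and *Irx5*, where 11.6% of all genes were called lower. For *Ets1* eKO against control none of them passed in any class.

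Of 25 targets and partners of the members in heart, 2 of 21 tested passed for *Ets1* eKO in cushion mesenchyme-like cells. In coronary endothelial-like cells 1 of 13 passed, where 1.09% of all genes did. All 3 were lower, and none passed in the other 8 classes. The 2 in the cushion, *Isl1* and *Hand1*, passed the filter on low counts through the controls alone. Their number is therefore not read against the share of all genes, and their direction is not read as a result. *Isl1*, a factor of the second heart field and the outflow tract, had 22 and 52 UMIs in control cushion mesenchyme-like cells and none in *Ets1* eKO. This makes it at least 13.5-fold lower by a floor of 3 UMIs over the group. That floor is 0.751 CPM over both *Ets1* eKO libraries, against 1.16 CPM in replicate 1 and 2.13 CPM in replicate 2. With either library alone the limit is therefore lower. The summed smooth muscle markers in this class and the number of smooth muscle-like cells were lower in both *Ets1* eKO libraries, as given above. In the cushion cells without smooth muscle UMIs *Isl1* and *Hand1* had too few counts to be tested. *Hand1*, a factor of ventricle and outflow tract, had 16 and 43 UMIs in control and 0 and 1 in *Ets1* eKO. Since only its control counts let it enter the test, its call is not read as a result. DESeq2, the stricter cell filter and the omission of either control replicate 2 or *Ets1* eKO replicate 1 each ended that call. The median log2 fold change of the 21 was -0.07, against 0.01 for all genes. *Gja5*, which encodes the connexin of fast conduction and arteries, stood at 48.6 and 37.4 against 23.5 and 19.8 CPM in coronary endothelial-like cells, with a log2 fold change of -0.93 (SE 0.19, adjusted p = 0.0342), a call lost with DESeq2 (adjusted p = 0.106) and without control replicate 1 (adjusted p = 0.157).

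Between classes the targets moved in both directions. In trabecular-like against compact-like cells 14 of 20 passed (45.8% of all genes), 7 higher and 7 lower, with the fast conduction genes *Gja5* (+3.25, SE 0.10) and *Gja1* (+2.10, SE 0.07) higher and *Kcnd2*, a channel of repolarisation, lower (-2.07, SE 0.08). In AVC-like against compact-like cells 17 of 22 passed (45.9% of all genes), 10 of them higher, among them the pacemaker and calcium channel genes *Hcn4* (+4.19, SE 0.20) and *Cacna1g* (+4.21, SE 0.20). *Shox2*, a partner of *Tbx3* in pacemaker tissue, had 38, 37, 97 and 36 UMIs in AVC-like cells and 1 UMI in all compact-like cells. *Kcnd2* was lower there as well (-2.22, SE 0.08). In valve against mural endocardial-like cells 11 of 14 passed (23.8% of all genes), 7 of them higher, among them *Hcn4* (+3.71, SE 0.45), *Bmp4* (+2.97, SE 0.30) and *Gata4* (+1.00, SE 0.13), with *Kcnd2* lower (-1.78, SE 0.22). In cushion mesenchyme-like against fibroblast-like cells 11 of 16 passed (51.1% of all genes), 9 of them higher, among them *Cacna1g* (+2.34, SE 0.20), *Has2*, the hyaluronan synthase of the cushions (+2.12, SE 0.15), *Kcnd2* (+1.64, SE 0.16) and *Hand2* (+1.09, SE 0.11).

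The genes most like each member across classes were sought over 13 classes, smooth muscle-like cells included, by the Pearson correlation of mean log2(CPM + 1), among 12465 genes with at least 10 CPM in 1 class, the listed genes left out. These values describe 13 points that share the same 4 libraries. For *Tbx3* the nearest was *Tbx3os1* (r = 0.912), its antisense neighbour, whose reads cannot be told apart from those of *Tbx3* without strand, and then *Mstn* (0.895). *Tubb4a* (0.949) and *Shisa6* (0.93) were nearest to *Tbx2*, and *Gm42941* (0.96) and *Mapk1ip1* (0.947) to *Tbx5*. *Gm14582* (0.947) and *Loxl1* (0.923) were nearest to *Tbx18*, and *Ank2* (0.954) and *Brsk1* (0.948) to *Tbx20*. For *Irx3* they were *Crnde* (0.954) and *Macf1* (0.837), for *Irx5* *Cd59a* (0.902) and *Pcp4* (0.875), and for *Irx4* *Myh7* (0.987), the slow myosin of ventricular muscle, and *Gm17428* (0.986). Among the members themselves the highest values were 0.845 for *Irx3* with *Irx5*, 0.743 for *Tbx2* with *Tbx3* and 0.697 for *Irx3* with *Irx4*.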

How the data were processed

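Droplet scRNA-seq (Chromium 3' v3.1 chemistry) was performed on 2 control and 2 *Ets1* eKO samples of pooled E14.5 ventricles, all in 1 batch by the labels. The authors deposited unnormalized UMI counts per gene and barcode, made with Cell Ranger 7.1.0 on mm10; Seurat 4.3.0 is also named in the submitters' processing notes. Libraries held 7949 to 14951 barcodes and 76931208 to 124140739 UMIs. Every column was assigned to a sample.

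Kept cells had 200 to 7000 genes and no fewer than 3000 UMIs. Mitochondrial counts made up 20% at most, ribosomal counts 35% and hemoglobin counts 2%. Cells were thinned to 3000 UMIs and gated by summed marker lists, with no clustering. The thresholds of the gates were set after the distributions of the marker sums had been seen. Thresholds on continuous scores cut a range: 1413 cardiomyocytes lay within 0.1 of the compact and 1026 mesenchymal cells within 0.1 of the cushion threshold. For the valve endocardial gate 1394 endothelial cells lay within 0.1 of the threshold, and 650 lay at or above it. Cells positive for 2 or more major types (1741) were left out, which served to remove doublets, and no doublet caller was run; 283 cells matched no type, and cells between gates were not tested. The mural list holds *Npr3* and *Nrg1*, which may themselves move with genotype.

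For every class and library UMIs were added up, and edgeR 4.0.16 in R 4.3.3 (quasi-likelihood, TMM, filterByExpr) gave p-values, adjusted by Benjamini-Hochberg over all genes tested, with a threshold of 0.05. Class comparisons had library as a block, and SE is the log2 fold change over the root of F. The scripts were tested on simulated data. Each of these was tried in turn: scaling by total count, DESeq2 1.42.0, every gene kept whatever its count, each library left out, a stricter gate (sums 1.5 times and scores 0.1 higher), cells with 1000 genes or more and 10% mitochondrial counts or less (the stricter cell filter), and replicate number as a block (or no block); the crossed pairing, the cushion cells without smooth muscle UMIs and the class by condition term were added after the data had been seen. Shares of cells were taken at 2000 UMIs, and intervals and floors cover counting error only. Beside the 8 members, genes were named by rule: up to 4 called genes with the smallest adjusted p per list and comparison, and the 2 most alike per member. Of the genes that this rule picked, 1 is not reported here. The members and lists were chosen with earlier results of these data known. Other steps used Python 3.11.15, numpy 2.4.6, pandas 2.3.3, scipy 1.17.1 and matplotlib 3.10.9, with seed 0.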

Additional observations from a re-analysis of the deposited data

Results flagged for a closer look

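Among the tests made, for 4 members every *Ets1* eKO library lay above both controls in at least 1 class and below both in at least 1 other (above in 1 and below in 1 for *Tbx2*, 3 and 3 for *Tbx5*, 1 and 5 for *Tbx20*, 3 and 1 for *Irx3*), and the pair of classes with the largest and smallest log2 fold change is given for each. Members lay above in 11 and below in 15 of 53 tests, against 13.9% and 29.6% of the tests of all genes. How many of all genes do both was not counted, so these 4 members are not read as unusual. *Tbx2* differed by 1.64 between cushion mesenchyme-like (+0.81) and epicardial-like cells (-0.83), although its value in the cushion cells without smooth muscle UMIs was -0.17, and the class by condition term gave +1.65 (adjusted p = 0.302 with edgeR). *Tbx5* differed by 2.17 between valve endocardial-like (+1.72) and epicardial-like cells (-0.46), with a term of +2.21 (adjusted p = 0.144 with edgeR). Between mural endocardial-like (+0.43) and coronary endothelial-like cells (-0.52) *Tbx20* differed by 0.95 (adjusted p = 0.0739 with edgeR), although both levels overlap that of immune-like cells. *Irx3* differed by 0.81 between AVC-like cardiomyocytes (+0.51) and mural endocardial-like cells (-0.31), with a term of +0.79 (adjusted p = 0.664 with edgeR). For *Tbx5* in cushion mesenchyme-like minus epicardial-like cells the term itself passed, at 1.77 (adjusted p = 0.0184 with edgeR), and was lost without *Ets1* eKO replicate 2. All pairs were picked after their values had been seen.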

How the results depend on the processing

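Across the alternatives, class comparisons of single genes kept direction and side of the threshold in 408 of 420 cases and *Ets1* eKO comparisons in 132 of 157. Both calls in cushion mesenchyme-like cells were kept with each library left out, but members called there were 1 with DESeq2, total count scaling, the stricter gate or the stricter cell filter, and 0 without smooth muscle UMIs, and 3 with no filter on low counts. In valve endocardial-like cells 1 member passed with no filter on low counts and 1 with the replicate block. The shallow *Ets1* eKO replicate 2 and 2 libraries per group limit all *Ets1* eKO tests, whose counts of genes moved widely; the causes were not tested.

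Genes called for *Ets1* eKO with no filter on low counts numbered 94 in compact-like, 191 in trabecular-like, 128 in cycling-like and 85 in AVC-like cardiomyocytes, 700 in mural, 168 in valve and 379 in coronary endothelial-like cells, and 414 in cushion mesenchyme-like, 53 in fibroblast-like and 38 in epicardial-like cells. DESeq2 gave 4, 13, 4 and 4 in the cardiomyocyte classes, 22 in valve, 2 in fibroblast-like and 0 in epicardial-like cells. Total count scaling gave 36 in trabecular-like and 7 in epicardial-like cells, the stricter gate 3 in AVC-like, 16 in valve and 5 in epicardial-like cells, and the stricter cell filter 9 in trabecular-like, 52 in cushion and 7 in epicardial-like cells. Without smooth muscle UMIs 0 were called in cushion cells. In class comparisons DESeq2 called 3407 (trabecular to compact), 3536 (AVC to compact), 1456 (valve to mural) and 3892 (cushion to fibroblast), and fits with no replicate block (library) 3144 and 1360 for trabecular to compact and valve to mural.

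The replicate numbers are not known to pair samples, and same-numbered libraries deviated with correlations of -0.224 to 0.0507. With the replicate block the counts were 34, 74, 58 and 42 in the cardiomyocyte classes, 702 in mural, 125 in valve, 276 in coronary, 205 in cushion, 6 in fibroblast-like and 31 in epicardial-like cells, and the crossed replicate block gave 540 in trabecular-like, 288 in AVC-like and 695 in coronary endothelial-like cells.

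Leaving out each library in turn gave 21 to 1054 genes in compact-like, 32 to 2313 in trabecular-like and 0 to 1969 in cycling-like cardiomyocytes, 0 to 107 in AVC-like, 14 to 374 in mural, 53 to 234 in valve, 159 to 976 in coronary, 100 to 382 in cushion, 5 to 181 in fibroblast-like and 11 to 52 in epicardial-like cells, with the lone library assumed to vary like the other group. Members called were then 0 to 1 in compact-like, trabecular-like, cycling-like and valve endocardial-like cells.

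Signs turned for *Tbx20* in the cushion (-0.0593 with total count scaling, -0.0012 with no filter, -0.0582 without smooth muscle UMIs, -0.20 to 0.22 with a library left out), for *Tbx2* in the cushion without smooth muscle UMIs (-0.17), for *Tbx20* in AVC-like against compact-like cells with total count scaling (0.0937), for *Tbx2* in cushion against fibroblast-like cells (0.0423 with total count scaling, -0.27 to 0.0273 with a library left out) and for *Tbx18* in trabecular-like against compact-like cells (-0.0223 to 0.35 with a library left out). None of these was called with all 4 libraries and the settings of the report, and *Tbx20* in AVC-like against compact-like cells passed with the stricter gate (-0.23) and with no filter (-0.15).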

Other observations

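Smooth muscle-like cells entered no comparison, since 8 and 6 of them were found in *Ets1* eKO against 107 and 257 in control. In the controls they held 54.8 and 56.6 CPM of *Tbx18*, 662 and 420 CPM of *Tbx20* and 12.2 and 5.37 CPM of *Tbx2*. *Tbx3* (1.22 and 5.37 CPM), *Tbx5* (1.22 and 3.42 CPM), *Irx3* (2.44 and 3.90 CPM) and *Irx5* (2.44 and 4.39 CPM) were low, and no UMI of *Irx4* was counted in the class in any library. In the control cushion mesenchyme-like cells the values were 27.7 and 29.5 CPM for *Tbx3*, 39.7 and 26.1 CPM for *Tbx5* and 37.9 and 34.3 CPM for *Tbx18*.

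Atrial-like cardiomyocytes numbered 45, 62, 85 and 105 and were not tested between groups. *Tbx2* there ran from 62.2 CPM in control replicate 1 to 24.3 CPM in *Ets1* eKO replicate 2, from 28, 35, 37 and 17 UMIs, with both *Ets1* eKO libraries below both controls.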
